A study of Mus musculus with 32 samples.

Results

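Knockdown of Zbtb9 was examined in 3T3-L1 preadipocytes before adipogenic induction, in 8 of the 32 libraries of the series. The comparison set 4 knockdown libraries at day 0 against 4 control libraries at day 0. The knockdown libraries came from 2 different short hairpin RNAs (shRNAs) against Zbtb9, called shRNA 1 and shRNA 2, with 2 libraries each. The controls carried a scramble shRNA named shCtrl and are labelled wild type. All 8 libraries came from the same mouse cell line, 3T3-L1, a fibroblast-like line that stops dividing at confluence and turns into fat-storing cells when hormones are added. Day 0 was 2 days after confluence, in DMEM with 10% serum, at the point when dexamethasone, isobutylmethylxanthine and insulin were about to be given. The other 24 libraries were taken from the same arms at days 3, 7 and 11. The labels number the libraries as biological replicates without saying whether cultures were separate, and do not say how the shRNAs were introduced or whether each line was a pool or a clone. The p-values therefore measure the spread between these libraries.

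ZBTB9 belongs to a family of nuclear proteins that join a BTB domain, which mediates contacts between proteins, to zinc fingers, which can bind DNA. Confluent preadipocytes are growth-arrested fibroblasts that secrete collagens, other matrix proteins, chemokines and complement factors. After induction they re-enter the cell cycle for a short time, and the transcription factors CEBPB, CEBPD, PPARG and CEBPA then switch on the adipocyte genes. The day 0 samples therefore show the state from which that programme starts.

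Whole reads were rebuilt from the deposited log2 values. Control libraries held 24432250 to 29799057 reads in genes and knockdown libraries 25946429 to 27628757. Levels below are normalized reads, which are rebuilt reads divided by a size factor for each library, and they are not corrected for gene length. Differences are on the deposited log2 scale, knockdown minus control, and understate changes of genes with few reads. Of 10 fibroblast and preadipocyte markers, all were above 3 reads in at least 1 library, and their summed level was 726000 to 763000 normalized reads in controls and 600000 to 685000 in knockdown. Col1a1 and Vim, chosen for mention after their values were seen, were the 2 of 9 tested markers that were called lower, by 0.28 and 0.17 on the log2 scale, and neither call held without any single control (adjusted p 0.0504 to 0.116). Col1a1 also lost its call without shRNA 1 replicate 2 and Vim without shRNA 1 replicate 1 or shRNA 2 replicate 1. Of 6 adipocyte markers, Adipoq, Plin1, Cfd and Lep had 3 reads or fewer in all 8 libraries, Cidec had at most 3.32 normalized reads, and Fabp4 had 59.3 to 97.8. The macrophage marker Ptprc, the epithelial markers Epcam and Krt18 and the endothelial marker Kdr were also at or under 3 reads. Other markers of those cells were present at low levels, with 0.878 to 15 normalized reads of Cdh1, 14.1 to 34.7 of Pecam1 and 7.4 to 44.5 of Vwf. The 5 endothelial markers summed to 62.3 to 77.9 in controls and 41.6 to 51.0 in knockdown, without overlap; the part of this in the results below was not tested. The summed level of 5 macrophage markers, which came mostly from Cd14 and Lyz2, was 725 to 815 in controls and 614 to 729 in knockdown, so the ranges overlapped slightly. All 8 libraries came from 1 cell line, and these low marker levels do not show that other cell types were present. In bulk RNA, fewer cells of a type and less RNA per cell cannot be told apart.

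Zbtb9 itself, on chromosome 17 in GRCm38 (chr17:26973167-27008376, plus strand), was covered by few reads. The controls had 13.5, 14.2, 14.1 and 14.9 normalized reads, and the knockdown libraries had 4.62 and 10.6 with shRNA 1 and 10.5 and 9.27 with shRNA 2. Every knockdown library lay below every control. The knockdown mean of 8.76 ± 2.83 was 61.9% of the control mean of 14.2 ± 0.594 (SD, n = 4), and the two-sided exact permutation p of 0.029 is the smallest that 4 against 4 allows. In the fit across all genes the log2 difference was -0.21 ± 0.10 (SE) with an adjusted p of 0.271, so the gene was not called there. Of its 3482 annotated exon bases, 84.4% are also exon of another gene on the same strand, listed in the table as Gm50253, and the counting mode is not given in the sources used here. What share of Zbtb9 RNA these reads cover was not tested.

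At an unadjusted p under 0.05, 2609 of 13216 genes (19.7%) differed between knockdown and control. After adjustment, limma with Benjamini-Hochberg adjustment called 430 of 13216 genes at an adjusted p under 0.05, which is 3.25% of the genes tested. Of these, 108 (0.817%) were higher and 322 (2.44%) lower in knockdown. Most changes were small: the median log2 difference was 0.24 among the genes that rose and -0.35 among those that fell, 91 genes changed by at least 0.5 and 6 by at least 1. In all 430 genes the 4 knockdown libraries lay on one side of the 4 controls, beside 13.9% of all genes tested (5.95% above and 7.98% below), and both shRNAs were on the same side. Each shRNA was also compared with control on its own, and 426 of the 430 genes were called the same way with both, beside 748 genes (5.66%) in all. The number of calls depended on the libraries: it was 129, 115, 111 and 157 without control replicate 1, 2, 3 or 4, and 250 without shRNA 1 replicate 2. When libraries were rescaled to equal totals, the calls split into 186 higher and 244 lower, so the share of higher calls moved from 25.1% to 43.3%. Fitting the shRNAs as separate groups, which takes their difference out of the residual spread, gave 3340 calls, and limma without trend and robust variance gave 261. With the replicate number as a block, which does not pair these libraries, limma called 0, with 1067 at an unadjusted p under 0.05.

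The 12 largest falls among called genes with a level of at least 50 were Dpt, Msln, Steap4, Zbp1, Spib, Enpp2, Serpinb1a, Igfbp4, Lbp, Nos2, Slc16a6 and Aldh3a1. Dpt encodes dermatopontin, a small matrix protein that binds collagen. It had 287, 282, 295 and 276 normalized reads in controls, 75.8 and 69.0 with shRNA 1 and 135 and 162 with shRNA 2, a log2 difference of -1.21 ± 0.20 (SE, adjusted p 0.0128). Both shRNA 1 libraries lay below both shRNA 2 libraries, and the shRNAs differed from each other (limma adjusted p 4.67e-06). Msln, the gene of the cell surface protein mesothelin, had 285, 296, 296 and 305 reads in controls, 136 and 138 with shRNA 1 and 93.1 and 112 with shRNA 2 (log2 difference -1.16 ± 0.11, adjusted p 0.000749). Here the lower pair belonged to shRNA 2. Steap4, a metalloreductase of the cell membrane that responds to inflammatory signals in fat, had 381, 496, 477 and 466 reads in controls against 153 and 191 with shRNA 1 and 231 and 229 with shRNA 2 (-1.08 ± 0.12, adjusted p 0.00201). The 2 most abundant genes of this group were Enpp2 and Igfbp4. Enpp2, which encodes autotaxin, the secreted enzyme that makes lysophosphatidic acid, had 5251, 4965, 5313 and 5059 reads in controls and 2102, 2069, 2760 and 3055 in knockdown (-1.03 ± 0.11, adjusted p 0.00286). Igfbp4, a secreted protein that binds insulin-like growth factors, had 1874, 1792, 1828 and 1741 reads in controls and 851, 826, 996 and 948 in knockdown (-0.96 ± 0.06, adjusted p 9.04e-05). Both genes were at about the same level in all 4 controls, and no knockdown library came near it.

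The remaining falls of this group were of genes with fewer reads than Enpp2 and Igfbp4. Spib, a transcription factor of the ETS family, had 63.1 ± 13.6 reads in knockdown and 167 ± 17.7 in control. Serpinb1a, an inhibitor of neutrophil proteases, had 49.8 ± 10.4 and 119 ± 15.2. Aldh3a1, an aldehyde dehydrogenase induced by the aryl hydrocarbon receptor in several tissues, had 49.2 ± 8.12 and 112 ± 10.2 (SD, n = 4 in each case). The monocarboxylate transporter gene Slc16a6 had 89.7 and 73.5 reads with shRNA 1, 36.0 and 45.4 with shRNA 2 and 142, 134, 120 and 140 in controls, and 22.5% of its exon bases overlap genes on the opposite strand. Zbp1, a sensor of Z-form nucleic acids, had 189, 180, 124 and 116 reads in knockdown and 454, 284, 276 and 391 in control. Of the 12 calls, Dpt lost its call when control replicate 1, 2 or 3 was left out (adjusted p 0.0513 to 0.0591), Slc16a6 without any single control (0.0729 to 0.0846) and Zbp1 without control replicate 4 (0.0566). The other 9 held when any single library was left out.

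The 12 largest rises were smaller. They were of Arhgap19, Fzd3, Nav2, Fzd4, H1f2, Camkk1, Mgat4b, Dcbld1, Cxcl12, Nin, Scarb1 and Snai1. Arhgap19, a GTPase-activating protein that acts in cell division, had 222, 228, 237 and 230 normalized reads in controls, 619 and 551 with shRNA 1 and 359 and 384 with shRNA 2 (log2 difference 0.91 ± 0.14, adjusted p 0.00901). The shRNA 1 libraries lay above the shRNA 2 libraries, and the shRNAs differed (limma adjusted p 2.35e-05). The chemokine gene Cxcl12 had 66614, 67098, 67450 and 66306 reads in controls and 94370, 93423, 88595 and 86055 in knockdown (0.42 ± 0.04, adjusted p 0.000749). Among the 24 genes it had the most reads, and its controls lay close together. Mgat4b, a Golgi enzyme that branches N-linked glycans, had 4100 ± 91.9 reads in knockdown and 2980 ± 121 in control. H1f2, a linker histone, had 1520 ± 69.9 and 1080 ± 35.6. Scarb1, the receptor for high density lipoprotein, had 1393, 1404, 1141 and 1097 reads in knockdown and 991, 926, 1012 and 905 in control. Snai1, a transcription factor of mesenchymal cells, had 2514, 2498, 1987 and 2014 in knockdown and 1794, 1744, 1788 and 1604 in control. The calls of Arhgap19, H1f2, Mgat4b, Cxcl12 and Nin held when any single library was left out. Fzd3 and Nav2 lost theirs when control replicate 1, 2 or 3 was left out (adjusted p 0.0635 to 0.0772). Those of Fzd4, Camkk1, Scarb1 and Snai1 were lost without any single control or shRNA 1 library (0.0566 to 0.128), and that of Dcbld1 without any single library but shRNA 2 replicate 1 (0.0569 to 0.119).

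**Figure D1:**
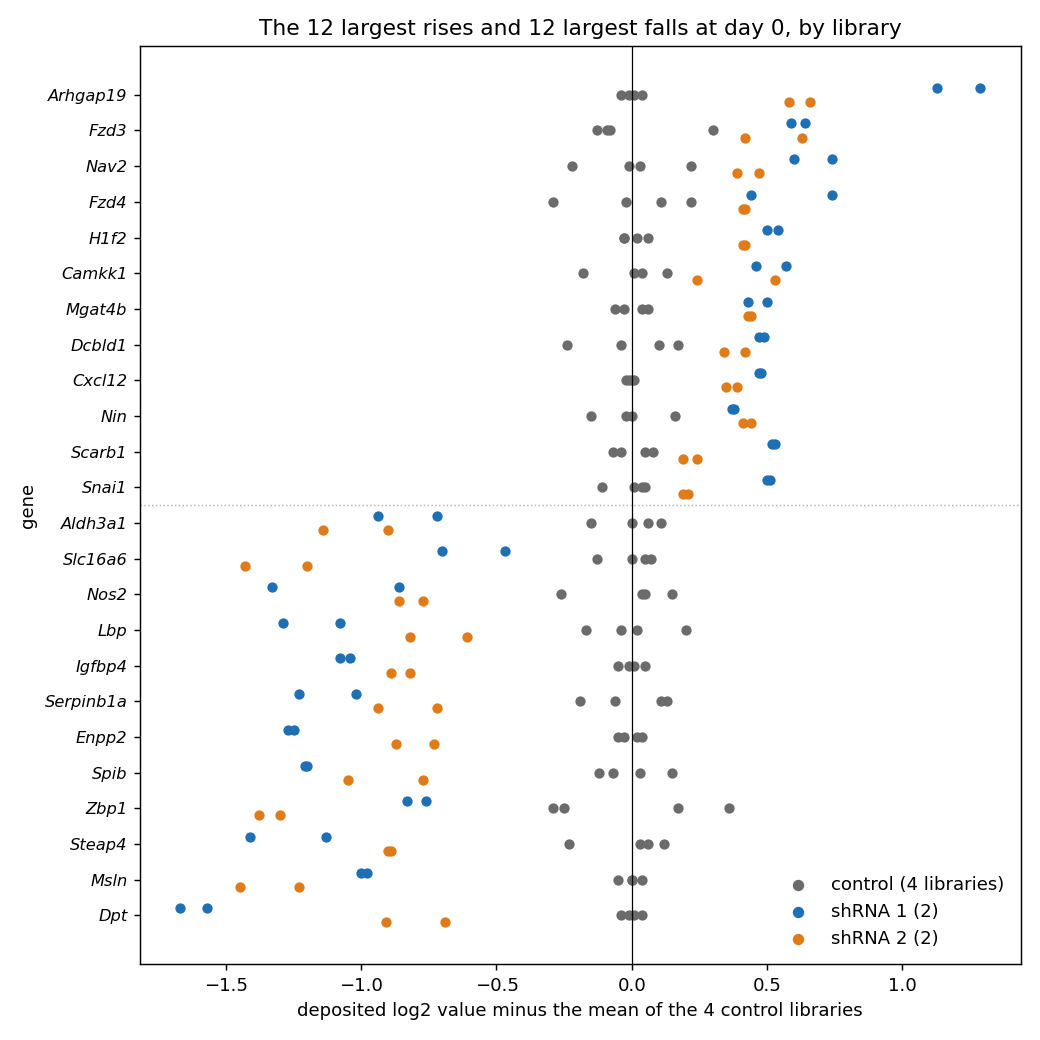
Each point is 1 library at day 0, placed by its deposited log2 value minus the mean of the 4 controls, for the 12 largest rises (top) and 12 largest falls (bottom). Grey points are controls, blue shRNA 1 and orange shRNA 2. The control points never overlap the coloured ones, as the choice of these genes required. For Dpt the shRNA 1 points lie left of the shRNA 2 points.

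**Figure D2:**
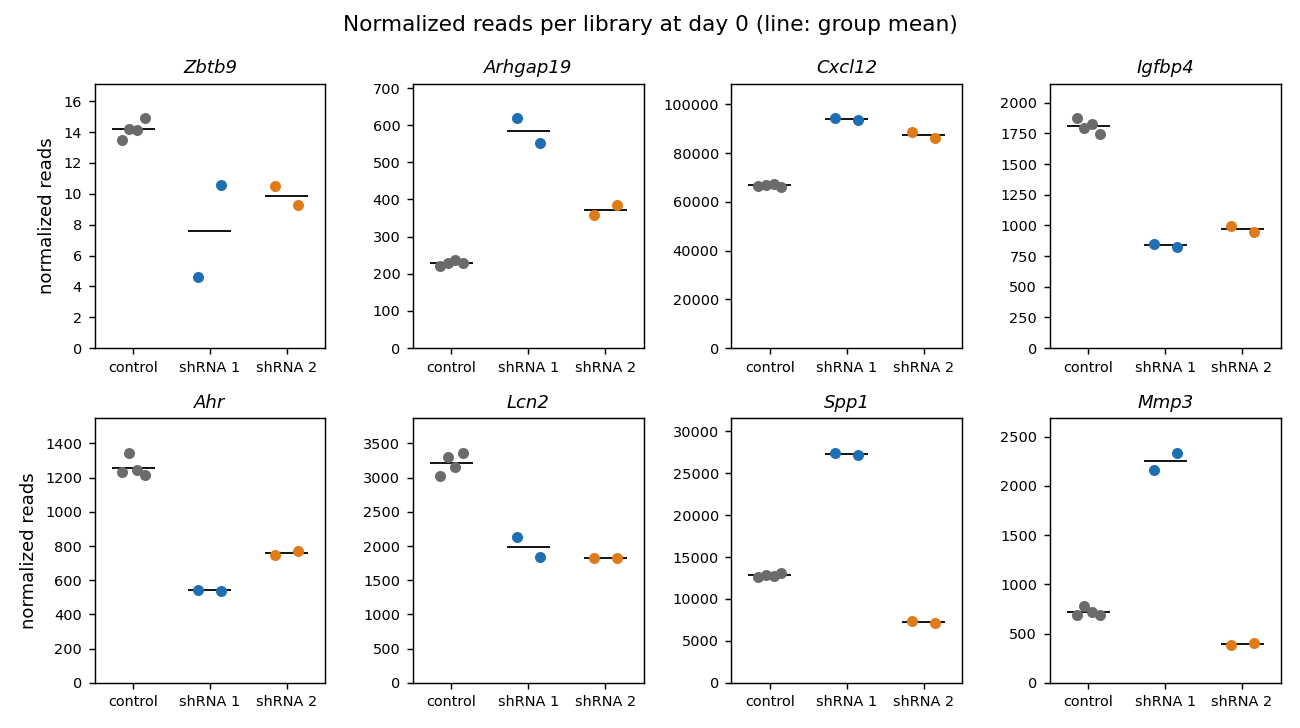
Normalized reads of 8 genes in each library at day 0, on linear axes from 0, with group means as lines. Arhgap19 and Cxcl12 were higher and Igfbp4, Ahr and Lcn2 lower with both shRNAs, while Spp1 and Mmp3 lay above control with shRNA 1 and below it with shRNA 2.

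Gene groups are described with 20 lists, chosen with earlier results of these data known, and 3 more that were drawn up after values were seen. Of the 497 genes of the 20 lists that were tested, 57 were called and 49 of these were lower, beside 3.25% called over all genes. The way the lists were chosen can raise that count, so nothing is read from it, and no list was tested against the others. Chemokine and NF-kB target genes were called lower in part. Of 29 chemokine and NF-kB target genes listed, 25 were tested; 8 were called lower and 1 higher, beside 2.44% lower and 0.817% higher over all genes tested. The median log2 difference was -0.22, beside -0.01 over all genes tested. NF-kB is the transcription factor family that drives many inflammatory genes. The list median was -0.27 and -0.26 in the shRNA 1 libraries, -0.26 and -0.26 in the shRNA 2 libraries and -0.02 to 0.04 in controls, so the groups did not overlap. With each shRNA set against control separately, 12 members were called lower with both, beside 3.8% of all genes. Lcn2 (lipocalin 2, which binds bacterial iron carriers) had 3028, 3297, 3149 and 3361 normalized reads in controls and 2126, 1837, 1831 and 1820 in knockdown (-0.73 ± 0.06, adjusted p 0.000415). Saa3, an acute-phase serum amyloid protein, had 1829, 1711, 1642 and 1829 reads in controls and 968, 977, 1212 and 1061 in knockdown (-0.71 ± 0.07, adjusted p 0.00107), a call lost in 1 fit of all 32 libraries (0.187). Cxcl1, which attracts neutrophils, had 4728, 4347, 4709 and 4803 in controls and 3637, 3370, 3300 and 3234 in knockdown (-0.44 ± 0.05, adjusted p 0.00178). Il33, an alarm cytokine, fell from 61.0 to 33.4 reads on average (-0.58 ± 0.10, adjusted p 0.0146), a call that did not hold without control replicate 1, 2 or 3 (0.0583 to 0.0609). The exception was Cxcl12, which rose as given above.

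Complement and acute-phase genes were put together as a list after their values were seen, so their count is a description of that choice. Of 33 listed, 22 were tested and 8 were called lower, with none called higher, beside 2.44% and 0.817% of all genes. With shRNA 1 alone 13 were called lower (median -0.63) and with shRNA 2 alone 12 (median -0.24), beside 18.9% and 10.2% of all genes. None was called higher with either. Lcn2 and Saa3 are members of this list and of the chemokine list and count in both. Lbp, which hands bacterial lipopolysaccharide to its receptor, had 159, 143, 192 and 167 reads in controls and 53.6, 65.5, 83.4 and 99.2 in knockdown (-0.95 ± 0.14, adjusted p 0.00696). Nos2, the inducible nitric oxide synthase, had 117, 117, 128 and 92.0 in controls and 52.7, 32.8, 58.0 and 52.9 in knockdown (-0.95 ± 0.14, adjusted p 0.00579). Serping1, the inhibitor of the first complement component, fell by 0.72 ± 0.11 (adjusted p 0.00706), to 94.3, 66.4, 96.6 and 99.2 reads from 172, 171, 160 and 165. C3, the central complement component, fell to 66000 ± 14200 reads from 106000 ± 3150 (SD, n = 4; -0.69 ± 0.13, adjusted p 0.0286). C4b fell by 0.70 ± 0.14 (adjusted p 0.0219) and the protease inhibitor Serpina3n by 0.53 ± 0.08 (adjusted p 0.00538). C3 and C4b lost their calls without any single control, and C3 also without shRNA 1 replicate 2 (adjusted p 0.0518 to 0.0924). These last 3 genes were chosen for mention after their values were seen.

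Promoter sequences are shown for the falls that carry a match to an NF-kB-type motif or a CEBP-type motif, because both factor families act on inflammatory genes of fibroblasts. The windows are the 250 bases before the RefSeq gene start in GRCm38.p6, searched on both strands for 4 motifs chosen with the results known. The NF-kB-type motif, GGG and TTTCC with any 2 bases between them, was found in 1.41% of all 32851 promoters. Among genes with a promoter entry it was found in 182 of 9921 genes tested (1.83%), in 12 of 232 called lower (5.17%) and in 0 of 85 called higher. The 6 largest falls that hold it were Steap4, Fam122b, Serpina3n, Cxcl1, Ccl9 and Use1, with log2 differences of -1.08, -0.54, -0.53, -0.44, -0.39 and -0.29. They are given 5′ to 3′ on the strand of the gene, 60 bases each, with the match in capitals; a match on the other strand reads GGAAA and CCC with 2 bases between.
Steap4, chr5:7960222-7960281: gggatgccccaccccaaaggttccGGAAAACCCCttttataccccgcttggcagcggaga
Fam122b, chrX:53269913-53269972: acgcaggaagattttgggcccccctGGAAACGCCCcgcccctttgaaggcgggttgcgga
Serpina3n, chr12:104406512-104406571: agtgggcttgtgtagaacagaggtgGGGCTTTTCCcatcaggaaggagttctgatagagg
Cxcl1, chr5:90891131-90891190: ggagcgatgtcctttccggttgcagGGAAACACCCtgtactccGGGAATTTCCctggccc
Ccl9, chr11:83578637-83578696: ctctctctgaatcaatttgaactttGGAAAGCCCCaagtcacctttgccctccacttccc
Use1, chr8:71366788-71366847: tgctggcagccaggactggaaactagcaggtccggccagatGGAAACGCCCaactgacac
Cxcl1 holds 2 matches in this window and the other 5 genes 1 each. The CEBP-type motif TTGCNNAA was found in 9.56% of all promoters, in 868 of 9921 genes tested (8.75%), in 26 of 232 called lower (11.2%) and in 10 of 85 called higher (11.8%). Of the 12 largest falls, 4 have a promoter entry and 3 of these hold it.
Dpt, chr1:164796580-164796639: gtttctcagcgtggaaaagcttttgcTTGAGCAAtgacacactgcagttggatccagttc
Steap4, chr5:7960359-7960418: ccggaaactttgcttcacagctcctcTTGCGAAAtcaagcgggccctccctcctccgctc
Spib, chr7:44532159-44532218: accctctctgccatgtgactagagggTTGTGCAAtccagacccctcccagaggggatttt
The interferon-type motif, GAAA and GAAA with any 2 bases between them, was in 2.98% of all promoters, 3.2% of genes tested and 4.74% of those called lower. The short AHR core GCGTG was in 28.2% of all promoters, 50.4% of genes tested and 43.5% of those called lower. At most 0.862% of the promoters with any of the 4 motifs had a match that overlapped a match of another. A match shows that the letters are present and no more.

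Matrix genes were called lower in part, where the shares over all genes were 2.44% lower and 0.817% higher. Of 35 tested non-collagen matrix genes, 6 were called lower and 1 higher, with a median of -0.18, and of 20 collagen genes 4 were called lower and none higher, with a median of -0.16. With shRNA 1 alone, 23 non-collagen genes were called lower and 3 higher (median -0.31), beside 18.9% and 15.8% of all genes. With shRNA 2 alone the counts were 11 and 2 (median -0.10), beside 10.2% and 7.38%. For collagens they were 13 and 1 (median -0.19) with shRNA 1 and 10 and 1 (median -0.13) with shRNA 2. Besides Dpt, the largest falls among called members were of Abi3bp, Aspn and Fbln1, while Dcn and Prelp, with differences of -0.69 each, were not called. Abi3bp, a secreted protein of the fibroblast matrix, had 5640, 6287, 5759 and 6530 normalized reads in controls and 3919, 3851, 4473 and 4407 in knockdown (-0.52 ± 0.06, adjusted p 0.00225). Aspn (asporin), a small leucine-rich proteoglycan, had 6111, 5452, 5987 and 6252 in controls and 3684, 3696, 4833 and 4670 in knockdown (-0.49 ± 0.09, adjusted p 0.0197). Fbln1 (fibulin 1), a glycoprotein of elastic fibres and basement membranes, had 2004, 2011, 2093 and 1872 in controls and 1548, 1636, 1362 and 1344 in knockdown (-0.42 ± 0.07, adjusted p 0.00821). Fbln5, needed for elastic fibre assembly, was the member that rose, with 3170 ± 191 reads against 2600 ± 61.4 (0.27 ± 0.05, adjusted p 0.0149), and was named after its value was seen; it lost its call without control replicate 1, 2 or 3 (0.0601 to 0.0689). The 4 collagens were Col1a1 (-0.28 ± 0.05), Col6a1 (-0.26 ± 0.06), Col16a1 (-0.23 ± 0.04) and Col6a2 (-0.16 ± 0.04), with adjusted p from 0.016 to 0.0481. Col1a1, a chain of the main fibrillar collagen, had 113645 to 125290 reads in controls and 90019 to 104279 in knockdown. The collagen calls were lost without single libraries: Col1a1 without shRNA 1 replicate 2 or any control, Col16a1 without control replicate 1, 2 or 3, Col6a1 without any control or shRNA 1 library and Col6a2 without any library (adjusted p 0.0504 to 0.163). Aspn lost its call when control replicate 1, 3 or 4 was left out (0.0706 to 0.0757). In 1 fit of all 32 libraries Abi3bp, Aspn, Col6a1 and Col6a2 were not called (adjusted p 0.119, 0.326, 0.153 and 0.418).

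Of 24 tested matrix proteases and inhibitors 3 were called lower and none higher, beside 2.44% and 0.817% of all genes. Cemip, which degrades hyaluronan, had 1030, 1078, 1033 and 1158 reads in controls, 482 and 450 with shRNA 1 and 776 and 724 with shRNA 2 (-0.79 ± 0.16, adjusted p 0.0278). Plat, the tissue plasminogen activator, fell by 0.34 ± 0.07 (adjusted p 0.0257) and Mmp23, a membrane metalloproteinase, by 0.28 ± 0.06 (adjusted p 0.0348). None of these 3 calls held without single controls: Cemip and Plat lost theirs without any control, Cemip also without shRNA 1 replicate 1 and Plat without shRNA 1 replicate 2, and Mmp23 without control replicate 1, 2 or 3 or either shRNA 1 library or shRNA 2 replicate 2 (adjusted p 0.0508 to 0.123).

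Cell cycle genes separated the shRNAs from each other. All 32 tested genes of mitosis and cytokinesis were called higher with shRNA 1, against 15.8% of all genes. With shRNA 2, 2 were called higher and 9 lower, against 7.38% and 10.2%. The list medians were 0.98 and -0.08. Over 4 against 4 libraries limma called 0 of the 32, with 6 at an unadjusted p under 0.05, beside 3.25% and 19.7% of all genes. With voom on the rebuilt reads 0 were called. The shRNAs themselves differed in all 32 genes by limma, a comparison for which the share over all genes was not counted. Cenpf, a kinetochore protein made in dividing cells, had 924 and 982 normalized reads with shRNA 1, 371 and 362 with shRNA 2 and 297, 339, 295 and 264 in controls. Aurka, a kinase of the mitotic spindle, had 575 and 711, 328 and 320, and 258 to 309 in the same order. In the 33 DNA replication genes, 32 were called higher and 1 lower with shRNA 1 and 0 higher and 24 lower with shRNA 2. The medians were 0.41 and -0.28, and 23 were called in opposite directions, beside 2.9% of all genes. Pole, the catalytic subunit of DNA polymerase epsilon, had 1204 and 1214 reads with shRNA 1, 617 and 618 with shRNA 2 and 631 to 737 in controls. Over 4 against 4, 3.03% of the replication genes were called, near the 3.25% of all genes. The single member called was Slbp, which binds the stem-loop of histone mRNAs, with 1595, 1609, 1541 and 1453 reads in knockdown and 1794 to 1867 in controls (-0.24 ± 0.05, adjusted p 0.0197), a call lost without any single control (0.0609 to 0.0826). Comparisons of the shRNAs with control share the control libraries, so their differences are not independent.

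Genes of growth arrest and the p53 response were called lower in part. Of 27 tested, 5 were called lower and none higher (2.44% and 0.817% over all genes), and the median was -0.10. Gadd45g and Gadd45b, stress-induced regulators of cell cycle and MAP kinase signalling, fell by 0.53 ± 0.08 (adjusted p 0.00644) and 0.40 ± 0.08 (adjusted p 0.0195). Cdkn1a, the inhibitor of cyclin-dependent kinases known as p21, had 7144, 7130, 7256 and 7092 reads in controls, 5225 and 5065 with shRNA 1 and 6427 and 6252 with shRNA 2 (-0.31 ± 0.07, adjusted p 0.0391). Sesn2, a sestrin induced by p53 and ATF4, fell by 0.37 ± 0.07 (adjusted p 0.0174). The fifth member was Eda2r, a receptor gene activated by p53, named after its value was seen (-0.24 ± 0.05, adjusted p 0.025, and 0.0508 to 0.0901 without control replicate 1, 2 or 4 or either shRNA 1 library). The calls of Gadd45b, Sesn2 and Cdkn1a were each lost without single libraries: Gadd45b without control replicate 1, 2 or 4, Sesn2 without any control, and Cdkn1a without any control or shRNA 1 library (adjusted p 0.0504 to 0.126).

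Early-response genes, which serum and stress induce within minutes, were grouped after their values were seen. Of 25 tested, 9 were called lower and none higher (2.44% and 0.817% over all genes), with a median of -0.20. Of the 9, Egr2 and Klf4 also count among the adipogenic regulators, Nr4a1 among the cAMP genes, Atf3 among the stress genes and Gadd45b and Gadd45g among the growth arrest genes. Egr2, a zinc finger factor that promotes early adipogenesis, had 230, 341, 282 and 279 normalized reads in controls and 140, 168, 134 and 136 in knockdown (-0.85 ± 0.11, adjusted p 0.00375). Fos, a subunit of AP-1, had 470, 512, 518 and 485 in controls and 297, 301, 337 and 317 in knockdown (-0.60 ± 0.07, adjusted p 0.00178). Nr4a1, an orphan nuclear receptor, had 679, 787, 630 and 690 against 419, 415, 488 and 542 (-0.55 ± 0.09, adjusted p 0.0126, 0.0546 without control replicate 2). In Egr2, Fos and Nr4a1, as in all 430 called genes, the knockdown and control libraries did not overlap. Egr3 was called too (-0.70 ± 0.16, adjusted p 0.0373), but not without any single control, shRNA 2 library or shRNA 1 replicate 2 (0.0523 to 0.126).

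A list that joins the integrated stress response, in which ATF4 raises genes of amino acid supply, with chaperones of the endoplasmic reticulum had 4 of 23 tested members called lower and none higher (2.44% and 0.817% over all genes), with a median of -0.11. Its library medians were -0.04 and -0.04 with shRNA 1, inside the control range of -0.06 to 0.05, and -0.19 and -0.18 with shRNA 2, below it. With shRNA 1, 7 members were called lower, and with shRNA 2, 14, beside 18.9% and 10.2% of all genes. Chac1, which breaks down glutathione, had 767, 915, 892 and 1016 reads in controls and 579, 520, 564 and 526 in knockdown (-0.67 ± 0.08, adjusted p 0.00211). Atf4 itself had 8585, 9084, 9356 and 9986 in controls and 7566, 7490, 7437 and 7196 in knockdown (-0.31 ± 0.05, adjusted p 0.00822). Trib3 (-0.50 ± 0.11, adjusted p 0.0391) and Atf3 (-0.49 ± 0.11, adjusted p 0.0431) were the other members called, and both calls were lost without any single control, shRNA 1 replicate 1 or shRNA 2 replicate 1, and that of Atf3 also without shRNA 2 replicate 2 (0.0585 to 0.131). Ddit3, the stress factor CHOP that restrains CEBP proteins, is not in this list but counts among the preadipocyte and anti-adipogenic genes. It had 2158, 2230, 2306 and 2435 reads in controls and 1887, 1782, 1784 and 1668 in knockdown (-0.34 ± 0.05, adjusted p 0.00656).

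Interferon-stimulated genes were lower mainly with shRNA 2. Of 35 tested, 20 were called lower with shRNA 2 and 2 with shRNA 1, against 10.2% and 18.9% of all genes, and the medians were -0.79 and -0.06. Over 4 against 4, 2 were called lower, Zbp1 and Dhx58, and none higher, beside 2.44% and 0.817% of all genes. All 35 nevertheless had a negative difference (median -0.47). The controls themselves were spread: their list medians were 0.19, -0.14, -0.23 and 0.19, the shRNA 1 libraries at 0.04 and -0.16 lay inside that range, and the shRNA 2 libraries at -0.60 and -0.94 lay below it. Ifit3, an antiviral effector, had 4443, 3472, 3164 and 4575 normalized reads in controls, 3013 and 2409 with shRNA 1 and 1772 and 1231 with shRNA 2 (-0.92 ± 0.25, adjusted p 0.0949, not called); 51.2% of its 50-base windows also occur in Ifit3b. Dhx58, a regulator of RNA sensing, had 1107, 971, 882 and 1241 in controls and 703, 718, 669 and 522 in knockdown (-0.65 ± 0.12, adjusted p 0.0183, and 0.0541 to 0.0708 without control replicate 1, 2 or 4). In 18 of the 35 genes the shRNAs differed from each other by limma. The share over all genes was not counted for that comparison, so this number cannot be set against it.

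**Figure D3:**
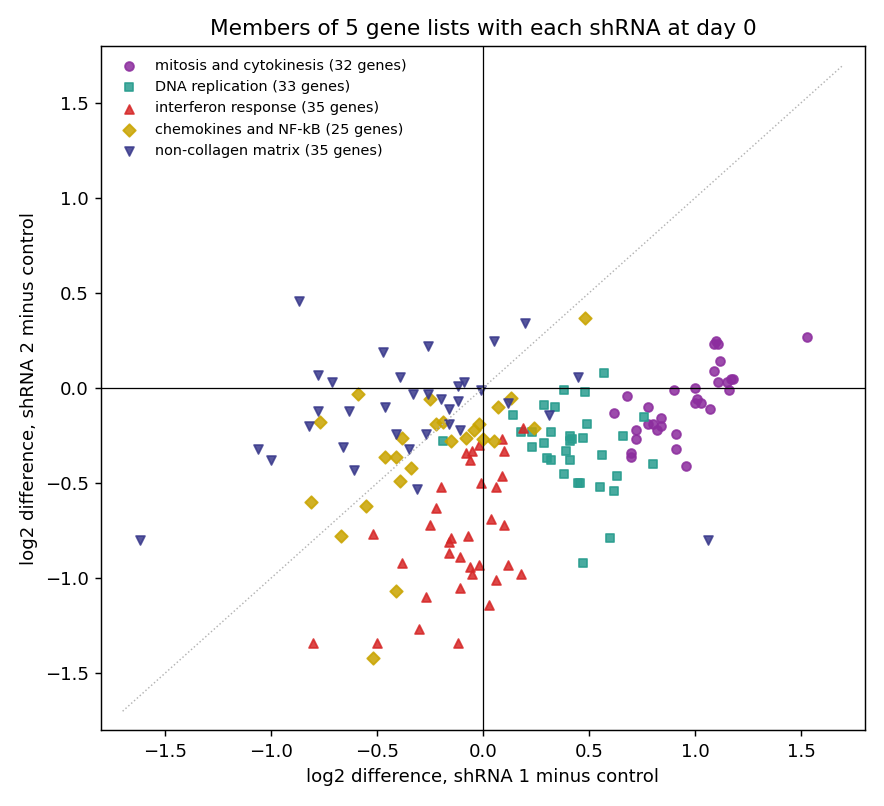
Each point is a gene of 1 of 5 lists, placed by its log2 difference from control with shRNA 1 (horizontal) and shRNA 2 (vertical); the dotted line marks equal differences. Mitosis genes lie far to the right near 0 on the vertical axis, DNA replication genes to the right and below 0, and interferon genes below 0 near 0 on the horizontal axis.

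Receptors and secreted regulators of Wnt and BMP signalling changed in single members. Of 21 tested Wnt genes 2 were called higher and 2 lower, beside 0.817% and 2.44% of all genes. The genes called higher encode receptors of the Frizzled family, whose other tested members, Fzd1, Fzd2, Fzd5, Fzd7 and Fzd8, were not called and had differences from -0.37 to -0.07. Fzd3 had 157, 150, 155 and 213 normalized reads in controls and 281, 270, 235 and 277 in knockdown (0.57 ± 0.11, adjusted p 0.0189), and Fzd4 had 226, 332, 278 and 306 against 393, 493, 385 and 388 (0.50 ± 0.11, adjusted p 0.0411). The ligand Wnt4 had 458, 423, 484 and 446 in controls and 275, 287, 285 and 318 in knockdown (-0.59 ± 0.07, adjusted p 0.00211). The coreceptor Ror1 had 476, 535, 537 and 533 against 320, 333, 394 and 366 (-0.50 ± 0.08, adjusted p 0.00726), and was not called in 1 fit of all 32 libraries (0.166). Of 23 tested BMP and activin genes 3 were called lower and none higher, beside the same shares, and all 3 encode secreted antagonists. Fst (follistatin), which binds activin, had 3390, 3281, 3479 and 3252 in controls and 2389, 2270, 2662 and 2570 in knockdown (-0.42 ± 0.05, adjusted p 0.00286). Grem1 (gremlin 1), an inhibitor of BMP ligands, had 20710 to 22628 in controls and 17018 to 18042 in knockdown (-0.29 ± 0.04, adjusted p 0.00486). Chrdl1 fell by 0.36 ± 0.07 (adjusted p 0.02), a call lost without any single control (0.0553 to 0.0826).

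In the aryl hydrocarbon receptor and NRF2 list, 2 of 17 tested genes were called lower and 1 higher, beside 2.44% and 0.817% of all genes; the same shares hold for the cAMP and IGF counts that follow. Ahr, the receptor itself, had 1231, 1345, 1247 and 1214 normalized reads in controls, 545 and 537 with shRNA 1 and 749 and 772 with shRNA 2 (-0.91 ± 0.11, adjusted p 0.00288). Aldh3a1, the other member that fell, is given above. Gclc, the catalytic subunit for glutathione synthesis and a target of NRF2, had 423 to 464 in controls and 478 to 645 in knockdown (0.36 ± 0.09, adjusted p 0.0488), and kept its call only without shRNA 2 replicate 2 (0.065 to 0.147 without any other library). Of 26 tested cAMP genes, Nr4a1 and Rapgef3 were called lower and Pde7a higher. Rapgef3, the cAMP sensor EPAC1, had 1173, 1168, 1234 and 1239 in controls and 861, 811, 1021 and 1041 in knockdown (-0.35 ± 0.08, adjusted p 0.0334), and Pde7a, a phosphodiesterase that removes cAMP, had 1168 to 1232 against 1337 to 1580 (0.26 ± 0.06, adjusted p 0.0331). Both calls were lost without any single control or shRNA 1 library (0.0628 to 0.119). Of 18 tested IGF and imprinted genes only Igfbp4 was called; the imprinted RNA H19 had 49.0 and 82.3 reads with shRNA 1, 25.5 and 17.6 with shRNA 2 and 9.95 to 22.7 in controls (0.93 ± 0.33, adjusted p 0.174).

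Most regulators and markers of fat cell formation were not called before induction, and over all genes 2.44% were called lower and 0.817% higher. Of 27 tested adipogenic regulators Egr2 and Klf4 were lower, none was higher, and the median was -0.11. Klf4, which acts early in adipogenesis, had 1496 to 1654 reads in controls and 1156 to 1389 in knockdown (-0.27 ± 0.06, adjusted p 0.0449), a call lost without any single control or shRNA 1 library (0.0576 to 0.146). Pparg, the master regulator, had 755 ± 33.2 reads with knockdown against 780 ± 35.4 without it (SD, n = 4; -0.04 ± 0.06, adjusted p 0.705). Cebpb had 6970 ± 1440 and 5930 ± 1280 (0.23 ± 0.18, adjusted p 0.522). Pparg and Cebpb were named after their values were seen. Among 27 tested preadipocyte and anti-adipogenic genes, Gata3, Ddit3 and Jag1 were called lower. Jag1, a ligand of Notch, had 3266, 3364, 3342 and 3671 in controls and 2744, 2830, 2694 and 2802 in knockdown (-0.29 ± 0.05, adjusted p 0.00783). Gata3, a factor that holds preadipocytes back, had 381 to 445 against 287 to 374 (-0.38 ± 0.09, adjusted p 0.0488), and kept its call only without shRNA 2 replicate 1 (0.0685 to 0.158 without any other library). Ly6a, the stem cell antigen Sca-1, had 1414 and 1306 reads with shRNA 1, 855 and 765 with shRNA 2 and 1685 to 1808 in controls (-0.70 ± 0.18, adjusted p 0.0788), so it was below control in all 4 libraries without passing the test. Of 27 tested adipocyte markers, 7 of which had 3 reads or fewer in all 8 libraries, only Lpl was called. Lpl, the lipase that releases fatty acids from lipoproteins, had 18343 to 18862 reads in controls and 20577 to 22113 in knockdown (0.19 ± 0.04, adjusted p 0.0267), a call lost without any single control or shRNA 1 library (0.0588 to 0.0959).

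In 24 tested genes of cholesterol synthesis and uptake 1 was called higher and 1 lower, beside 0.817% and 2.44% of all genes. Stard4, a carrier of cholesterol between membranes, was higher (0.27 ± 0.05, adjusted p 0.0203) and Srebf2, the factor that drives the pathway, lower (-0.20 ± 0.04, adjusted p 0.0283). Stard4 lost its call without any single control and Srebf2 without any single control or shRNA 1 library (0.0542 to 0.114). In 26 tested contractile, SRF and YAP target genes and 10 tested mitochondrially encoded genes limma called 0 over 4 against 4 libraries, with 6 and 4 at an unadjusted p under 0.05 and 0 called by voom in either list. Over all genes limma called 3.25%, and 19.7% had an unadjusted p under 0.05. With shRNA 2 alone against control, 9 contractile members were called higher and 5 lower, beside 7.38% and 10.2% of all genes. Acta2, the smooth muscle actin of activated fibroblasts, had 20789 and 21299 reads with shRNA 1, 30570 and 29075 with shRNA 2 and 20600 to 22202 in controls, and was called higher with shRNA 2 (0.49, adjusted p 3.19e-12). Des (desmin), a filament protein of muscle, and Ankrd1, a target of YAP, were called lower with it (-0.58 and -0.53, adjusted p 0.00395 and 0.00193), and were chosen for mention after their values were seen. The mitochondrial list had a median of 0.03. Of 16 tested replication histone genes, listed after their values were seen, H1f2 and H2bc9 were called higher. H2bc9 had 21.3, 16.8, 17.6 and 11.1 reads in knockdown and 7.58, 1.01, 1.88 and 5.80 in controls (0.62 ± 0.12, adjusted p 0.024), 17.9% of its 50-base windows occur in other histone genes, and its call was lost without control replicate 2, 3 or 4 or either shRNA 1 library (0.0529 to 0.0924).

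**Figure D4:**
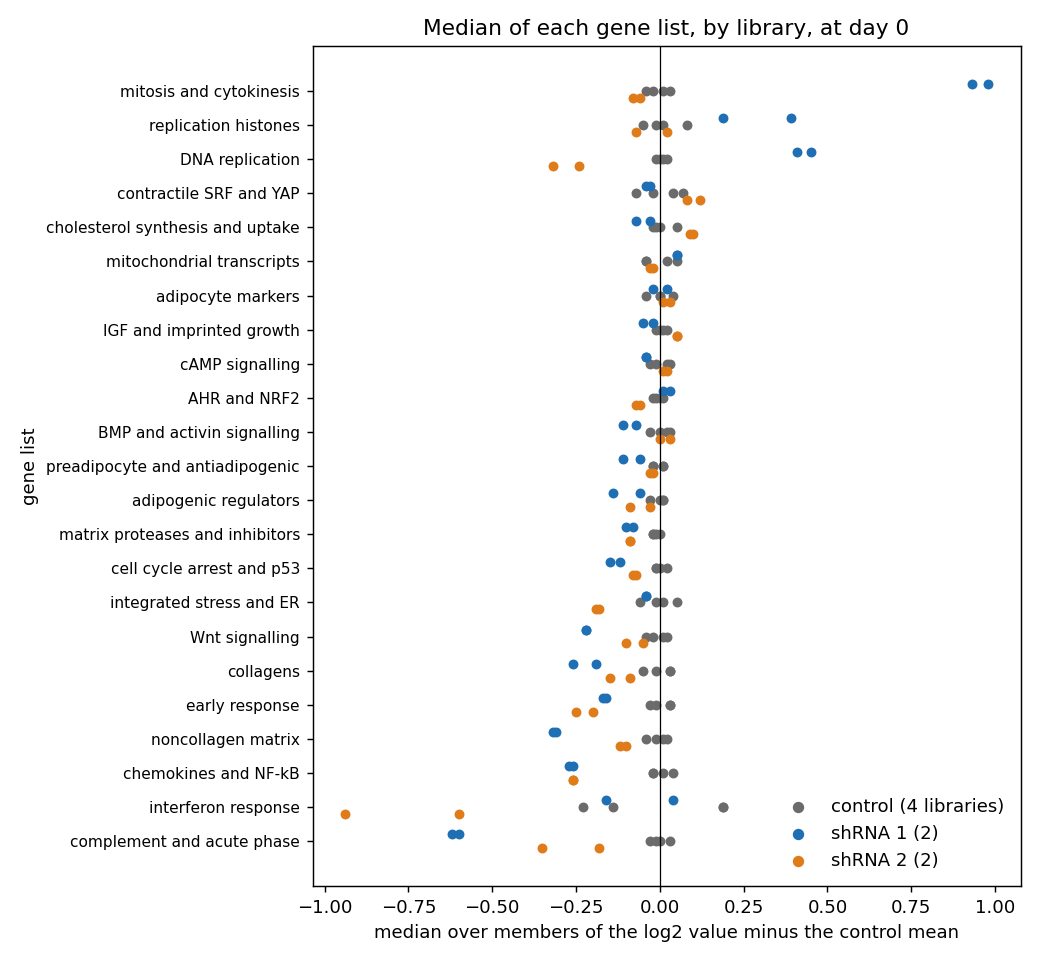
For 23 gene lists, each point is the median over the tested members of a library's log2 value minus the control mean. In the chemokine, non-collagen matrix and complement lists all 4 knockdown libraries lie left of the controls. They also do so in the collagen, matrix protease, growth arrest, early-response and Wnt lists. Mitosis and DNA replication lie right with shRNA 1 and at or left of control with shRNA 2.

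Set against control one at a time, shRNA 1 gave more calls than shRNA 2. With shRNA 1, 4589 genes (34.7%) were called and with shRNA 2, 2323 (17.6%). The count for shRNA 2 was 1281 without its replicate 1 and 946 without its replicate 2. Of the 13216 genes, 246 (1.86%) were called higher with both, 502 (3.8%) lower with both and 383 (2.9%) in opposite directions. Of the last, 219 (1.66%) were higher with shRNA 1 and lower with shRNA 2, and 164 (1.24%) the reverse. Without shRNA 2 replicate 1 or 2, the genes called the same way with both numbered 430 and 382 and those in opposite directions 213 and 141. The first principal component, with 45.5% of the variance, placed the shRNA 1 libraries at -21.0 and -20.7 and the other 6 between 5.2 and 9.0. The second, with 22.4%, placed the shRNA 2 libraries at 12.3 and 14.4 and the controls between -8.4 and -6.2. Among the 430 genes called over 4 against 4, the difference was larger with shRNA 1 in 278 and with shRNA 2 in 152. In 131 the shRNAs differed from each other by limma, and the share over all genes was not counted for that comparison.

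Some genes were called the same way with each shRNA and did not pass over 4 against 4 libraries. Ptgs2, the inducible cyclooxygenase, had 497, 533, 537 and 554 normalized reads in controls, 390 and 332 with shRNA 1 and 164 and 196 with shRNA 2 (-0.97 ± 0.23, adjusted p 0.0663), and was called lower with each. The haptoglobin gene Hp had 86.9, 105, 133 and 78.8 in knockdown and 139 to 175 in controls (-0.50 ± 0.12, adjusted p 0.0526). Aqp3, a water and glycerol channel, had 44.8 to 57.5 against 68.8 to 102 (-0.53 ± 0.13, adjusted p 0.0521), and Scn7a, a sodium channel, had 69.4 to 90.9 against 92.9 to 137 (-0.47 ± 0.12, adjusted p 0.0653). In Prl2c2, a proliferin, shRNA 1 gave 3024 and 3021 reads, shRNA 2 gave 1728 and 1648 and the controls 1119 to 1256 (0.86 ± 0.20, adjusted p 0.0628), but 83.3% of its 50-base windows also occur in related genes such as Prl2c3, so the reads cannot be given to 1 gene with certainty. Lims2, Dmxl2 and Paqr4, the other genes named among the rises of this class, had differences of 0.60, 0.37 and 0.28.

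In other genes the shRNAs went opposite ways. Spp1, which encodes the secreted phosphoprotein osteopontin, had 27420 and 27208 reads with shRNA 1, 7335 and 7159 with shRNA 2 and 12613 to 13086 in controls. Mmp3, the metalloproteinase stromelysin 1, had 2161 and 2336, 385 and 405, and 690 to 782 in the same order. Krt15, a keratin, had 240 and 285 with shRNA 1, 16.7 and 19.5 with shRNA 2 and 47.1 to 58.7 in controls. Hmgb2, a chromatin protein of dividing cells, had 2539 and 2677, 1058 and 956, and 1553 to 1772. The sodium bicarbonate transporter gene Slc4a4 went the other way, with 145 and 125 reads with shRNA 1, 289 and 355 with shRNA 2 and 226 to 258 in controls, as did Mxd1, a partner of MAX that opposes MYC, with 541 and 560, 973 and 991, and 722 to 818. Edil3 and Fam160a1 followed the pattern of Slc4a4, with 506 to 525 and 347 to 360 reads with shRNA 1 and 896 to 911 and 677 to 726 with shRNA 2. None of these 8 was called over 4 against 4. For each the shRNAs lay on opposite sides of every control, which a choice by calls in opposite directions favours.

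The day 0 differences were then followed into differentiation, in separate fits of 4 knockdown against 4 control libraries on each day. Of the 322 genes lower at day 0, 136 of 321 tested at day 3 (42.4%), 166 at day 7 (51.7%) and 139 at day 11 (43.3%) were called lower again, beside 12.1%, 22.6% and 16.2% of all genes tested on those days. Called higher instead were 30, 62 and 51 of them, or 9.35%, 19.3% and 15.9%, beside 14.6%, 24.9% and 16.8%. Of the 108 genes higher at day 0, 35, 39 and 37 of 107 were called higher again (32.7%, 36.4% and 34.6%), beside 14.6%, 24.9% and 16.8%. Called lower instead were 4, 12 and 8 of them (3.74%, 11.2% and 7.48%), beside 12.1%, 22.6% and 16.2%. Over all genes, 26.7%, 47.6% and 33.0% were called on days 3, 7 and 11. The difference itself departed from that at day 0 in 78 of the 322 falls and 19 of the 108 rises at day 3, beside 6.57% of all genes. The counts were 144 and 55 at day 7, beside 29.9%, and 131 and 53 at day 11, beside 23.2%. In most of them the later difference lay nearer 0 or on the other side: 72 of 78 and 18 of 19 at day 3, 109 of 144 and 47 of 55 at day 7, and 98 of 131 and 44 of 53 at day 11. The genes were chosen by their day 0 values, which favours that direction and adds to these counts, so no change is read from them. On all 4 days 63 genes were called lower and 16 higher, of 12977 tested on each day. The day 0 falls had median differences of -0.18, -0.26 and -0.22 on days 3, 7 and 11, after -0.35 at day 0, and the same limit holds for them.

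Single genes kept or turned their difference. Mgat4b, Dcbld1, H1f2 and Scarb1 were called higher on all 4 days, with H1f2 at 0.43, 0.73 and 1.46 and Scarb1 at 0.36, 0.72 and 0.94 on days 3, 7 and 11. Lbp was called lower on all 4 days (-0.70, -0.57 and -0.67 after day 0). Igfbp4 turned: after -0.96 at day 0 the difference was -0.19 at day 3, which did not pass (adjusted p 0.0869). By day 7 it had reached 1.42 (adjusted p 3.03e-10), and on day 11 it stood at 1.00 (adjusted p 3.6e-06). Its control level at day 7 was 5080 ± 457 normalized reads, against 14000 ± 918 in knockdown (SD, n = 4). Slc16a6 was called higher on days 3, 7 and 11 (0.83, 0.75 and 0.80). Cxcl12, which rose at day 0, was called lower on days 7 and 11 (-0.45 and -0.33, with adjusted p of 0.000414 and 0.017). Steap4 was lower at days 3 and 7 (-1.16 and -0.94) and did not pass at day 11 (-0.46, adjusted p 0.0594). Its difference at day 11 was not called against that at day 0 (0.61, limma adjusted p 0.074), so a loss is not shown. These fits do not share libraries between days, but the lines are the same.

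**Figure D5:**
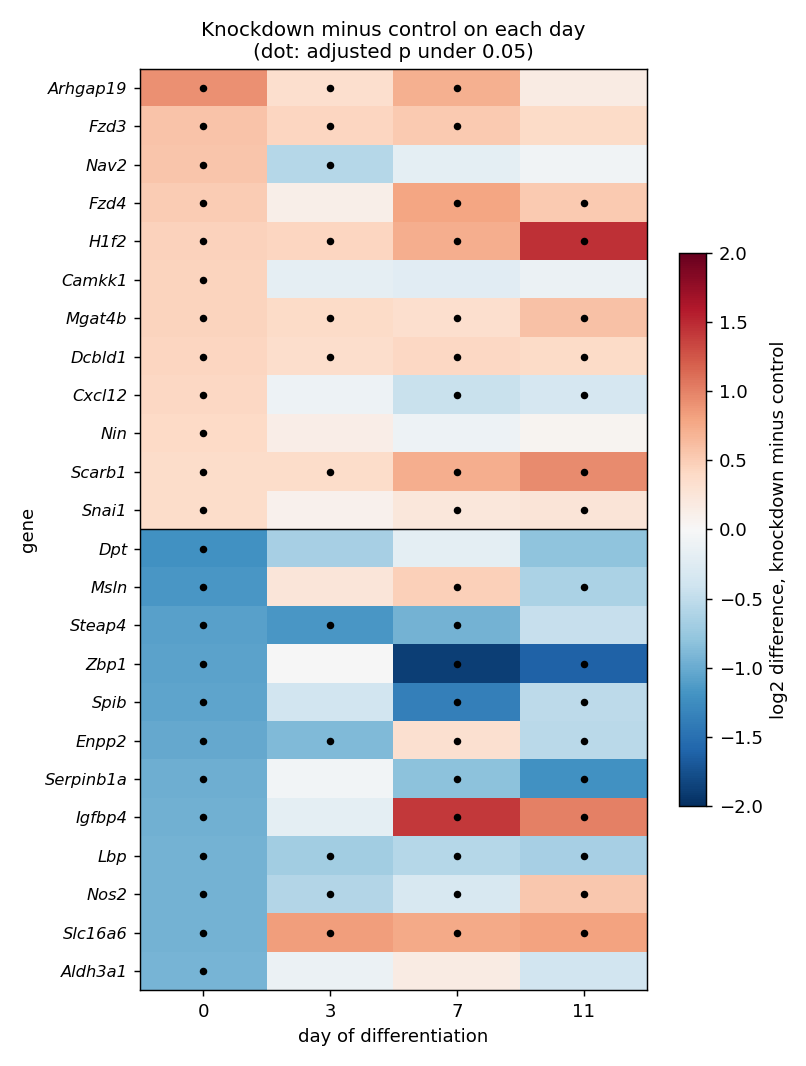
Colour gives the log2 difference of knockdown minus control on each day for the 12 largest rises (top) and 12 largest falls (bottom) at day 0, and a dot marks an adjusted p under 0.05 by limma. Scarb1 and H1f2 stay red, Lbp stays blue, and Igfbp4 and Slc16a6 turn from blue to red.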

How the data were processed

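RNA of 3T3-L1 cells was sequenced from TruSeq libraries, per the labels' protocols. The submitters' processing notes name TopHat2 2.1.0, Bowtie2 2.2.6, SAMtools 1.3.1 and HTSeq 0.6.1. Genome build, annotation, counting mode, strand and the final transform are not given in the sources used here. The authors deposited log2 values for 32 libraries in 1 table, in a form that draws low-read genes toward their mean. Inverting it gave whole reads for 99.3% of values (within 0.1 of a read).

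Analysis used the deposited log2 values without a pseudocount. A gene entered the test if 4 or more of the 8 libraries reached a level (2 raised to its deposited value) of 10. The test was limma 3.58.1 (R 4.3.3; trend and robust variance) with Benjamini-Hochberg adjustment, called at an adjusted p under 0.05, first as 4 against 4, then as 3 groups. Tables and permutation tests used Python 3.11.15, numpy 2.4.6, pandas 2.3.3 and scipy 1.17.1. Tested on simulated data for the 4 against 4 comparison (13223 genes tested), the fit recovered 88%, 99% and 100% of changes of 0.25, 0.5 and 1, and 5.9% of calls were false. The simulated knockdown libraries shared 1 mean per gene, with the spread of the controls and no difference between the shRNAs. These rates therefore do not describe the real comparison, in which the shRNAs differed.

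Named genes were Zbtb9, the 12 largest rises and 12 largest falls among called genes without overlap and with a level of at least 50, the 4 largest of each class called with each shRNA (same way or opposite ways), and up to 4 members of each of 23 lists, called members first. Predicted or clone names were left out. Members and lists were chosen with earlier results of these data known, and 3 lists and the 4 promoter motifs after the values were seen. Positions come from GENCODE M21 and promoters from RefSeq. Alternatives covered filters, pseudocounts, scaling, the variance model, voom, 1 fit of all days, a replicate block and leaving out each library.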

Additional observations from a re-analysis of the deposited data

Results flagged for a closer look

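In 5 of the 82 groups of 4 libraries examined, 1 library stood apart by Dixon's test at the 95% level; chance does this in about 1 in 20 groups. On the deposited log2 scale, Fzd3 was at 7.68 in control replicate 4 and at 7.25 to 7.30 in the other controls. Mxd1 was at 9.69 in control replicate 3 and at 9.52 to 9.54 in the others. In shRNA 1 replicate 2, Fzd4 was at 8.93 (8.60 to 8.63 in the other knockdown libraries), Mgat4b at 12.05 (11.98 to 11.99) and Nos2 at 5.66 (6.13 to 6.22).

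For 14 of the 24 largest changes the knockdown difference at a later day differed from that at day 0, by a limma interaction term with Benjamini-Hochberg adjustment. By day, this held for 3, 5 and 6 of the 12 rises and 5, 6 and 4 of the 12 falls on days 3, 7 and 11, beside 6.57%, 29.9% and 23.2% of all genes. The genes were chosen as the extremes of day 0, which favours a later difference nearer 0, so nothing is read from the signs. The later difference minus that at day 0 is given for the day on which it was largest. Among the genes that rose at day 0 it was -0.75 for Arhgap19 at day 11 (adjusted p 0.00416), -1.12 for Nav2 at day 3 (0.00596), -0.67 for Camkk1 at day 7 (0.0037), -0.87 for Cxcl12 at day 7 (8.86e-08) and -0.50 for Nin at day 7 (0.00214). It was 1.00 for H1f2 (1.79e-07) and 0.58 for Scarb1 (4.35e-05), both at day 11. Among the genes that fell at day 0 it was 2.37 for Igfbp4 at day 7 (8.67e-17), 1.78 for Slc16a6 at day 3 (5.11e-07), 1.64 for Msln at day 7 (6.17e-06), 1.49 for Nos2 at day 11 (8.47e-07), 1.35 for Enpp2 at day 7 (1.05e-06), 1.11 for Aldh3a1 at day 7 (0.000333) and 0.91 for Serpinb1a at day 3 (0.00251).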

How the results depend on the processing

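Leaving out 1 library at a time gave 111 to 563 calls over 4 against 4, 15 to 140 of them higher and 96 to 423 lower. It gave 3131 to 4702 calls with shRNA 1, 946 to 2663 with shRNA 2, 382 to 872 the same way with both and 141 to 433 in opposite directions. For the 70 named called genes, 373 of 560 such values kept their call. None could reverse there, because the knockdown and control libraries of these genes did not overlap. Under the other settings apart from the block 631 of 699 kept their call and none reversed. Several of those settings use the same values and could not reverse it either. Calls were lost without a filter on low values for Fzd4, Camkk1, Dcbld1, Scarb1, Snai1, Klf4, Gata3, Col6a1, Col6a2, Plat, Mmp23, Cdkn1a, Gclc, Rapgef3, Pde7a, Trib3, Atf3 and Egr3 (adjusted p 0.0525 to 0.089). In 1 fit of all 32 libraries they were lost for Nav2, Klf4, Gata3, Lpl, Col6a1, Col6a2, Abi3bp, Aspn, Mmp23, Dhx58, Saa3, Slbp, Stard4, Rapgef3 and Ror1 (0.0802 to 0.418). With equal totals they were lost for Klf4, Gata3, Col6a1, Col6a2, Mmp23, Cdkn1a and Atf3 (0.0506 to 0.0705), with equal medians for Klf4, Gata3, Col6a1, Col6a2 and Cdkn1a (0.0505 to 0.0559), and with voom for Gclc and Atf3 (0.0572 and 0.0589). Limma without trend and robust variance lost those of Fzd4, Scarb1, Snai1, Klf4, Gata3, Lpl, Col1a1, Col6a1, Col16a1, Col6a2, Plat, Mmp23, Cdkn1a, Srebf2, Gclc, Rapgef3, Pde7a, Chrdl1, Trib3, Atf3 and Egr3 (0.0502 to 0.109). Apart from Abi3bp, Ror1 and Saa3, each of these genes also lost its call without single libraries. Equal totals gave 186 higher calls. Without a filter on low values 235 genes were called in opposite directions, and the day 0 calls found again in the same direction numbered 100 at day 3 and 111 at day 11. Limma without trend and robust variance gave 261 calls, 52 higher and 209 lower, with 1206 for shRNA 2, 396 the same way with both and 184 in opposite directions. In 1 fit of all 32 libraries 211 were higher, 442 the same way with both, 1534 called with shRNA 2 and 211 in opposite directions. The shRNAs as separate groups gave 3340 calls (1449 higher, 1891 lower). With the replicate number as a block, limma called 0 genes over 4 against 4, 0 higher and 0 lower, with 1067 at an unadjusted p under 0.05. Same-numbered libraries correlated at 0.01 to 0.08 in their deviations, so the numbers are not taken as pairing, and control replicates 3 and 4 have no partner and add nothing to that fit. Zbtb9, with at most 18 reads a library, and other low-read genes are measured with little precision.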
